A study of Mus musculus with 18 samples.

Results

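The nuclear genes of oxidative phosphorylation were followed across 2 genotypes and 3 levels of shear in cultured mouse cells. They were taken by gene symbol as the Nduf, Sdh, Uqcr, Cox4 to Cox8 and Atp5 genes, with pseudogenes dropped. This gave 83 of the 21647 genes in the table, with 36 genes named for complex I, 4 for complex II, 8 for complex III, 18 for complex IV and 17 for complex V. Of these, 80 had enough reads to be tested among 13058 genes, and Cox4i2, Cox6b2 and Cox8c did not. Genes encoded by the mitochondrial genome were not analysed here.

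The cells are labelled as aortic endothelial cells from mouse embryos. The orpk cells are homozygous for Tg737orpk, an insertion in Ift88, a gene of the transport machinery of primary cilia. The WT cells are wild type. Each genotype was kept static or was put under laminar flow for 48 h at 2 or 30 dyn/cm2, with 24 h of serum starvation in all groups. The 6 groups were orpk static, orpk at 2, orpk at 30, WT static, WT at 2 and WT at 30 dyn/cm2, with 3 poly(A) RNA libraries each. Nothing in the labels ties the 3 libraries of a group to separate animals or isolations, so p-values here measure only how these libraries vary, which may be technical.

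Oxidative phosphorylation makes ATP in the inner mitochondrial membrane. Complex I takes electrons from NADH and complex II from succinate, complex III passes them through cytochrome c to complex IV, and complex IV hands them to oxygen. Complexes I, III and IV pump protons, and the flow of protons back through complex V, the ATP synthase, drives ATP synthesis. Endothelial cells are known for making much of their ATP by glycolysis, with mitochondria that also serve in signalling.

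Library totals ran from 13626480 to 17387553 counts. Ift88 was present in every group, at 7.81 ± 0.568, 7.73 ± 0.520 and 6.90 ± 0.50 CPM (read counts scaled to a common library size, normalised by TMM, ± SD, n = 3) in orpk cells in static culture, at 2 and at 30 dyn/cm2, against 15.6 ± 2.05, 14.5 ± 0.874 and 13.3 ± 0.595 CPM in WT cells. WT replicate 1 and orpk replicate 2 at 2 dyn/cm2 stood apart from their partners. The chi-square per degree of freedom was 6.10 and 7.43 between WT replicate 1 and its partners and 1.42 between those partners, and 3.28 and 3.66 for orpk replicate 2 against 1.55. The 12 endothelial markers summed to 10.7 to 17.9 CPM in orpk libraries and 9.21 to 13.0 CPM in WT libraries, and Cdh5, Tie1 and Erg had no read in any WT group. The 8 fibroblast markers, all 8 above 1 CPM in orpk cells, summed to 26100 to 41160 CPM in orpk libraries and 716.6 to 1160.0 CPM in WT libraries. The 8 epithelial and mesothelial markers summed to 157 to 301 CPM in orpk libraries and 352 to 571 CPM in WT libraries. The keratin genes Krt8 and Krt18 lay below 1 CPM in each orpk group and between 140.2 and 196.7 CPM in each WT group. Other genes of that list went the other way or were mixed. Msln had 198.4, 110.5 and 164.6 CPM in the orpk groups by rising shear, against 94.6, 40.1 and 28.3 CPM in WT groups. Krt19 had 96.9, 53.5 and 17.2 CPM in orpk groups against 162.2, 17.9 and 16.2 CPM in WT groups. Marker sums also moved with flow. The 7 smooth muscle and pericyte markers summed to 936.5 to 1043 CPM in static orpk libraries, 1614 to 1845 at 2 and 3656 to 3769 at 30 dyn/cm2. In WT libraries they summed to 50.5 to 53.8, 64.8 to 72.8 and 116.3 to 130.2 CPM. The part of such differences in cell identity in the flow, interaction and genotype results below was not tested.

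As a summed level, the 83 genes held 7757, 7824 and 7264 CPM in orpk cells in static culture, at 2 and at 30 dyn/cm2, against 8764, 9446 and 8958 CPM in WT cells. The sum was highest in WT replicate 1 at 2 dyn/cm2, at 10121 CPM, beside 9115 and 9101 CPM in its partners. Every orpk library lay below every WT library, and most of the gap lay in complex V. Complex V genes summed to 2732 ± 30.9, 2755 ± 70.7 and 2504 ± 46.0 CPM in orpk cells, against 3664 ± 24.9, 3910 ± 208 and 3773 ± 15.0 CPM in WT cells (SD, n = 3). Complex I genes summed to 2568 ± 5.65, 2569 ± 49.4 and 2367 ± 36.8 CPM in orpk cells, against 2478 ± 16.1, 2745 ± 195 and 2531 ± 10.9 CPM in WT cells, so that in static culture the complex I sum was higher in every orpk library. That order rested on Ndufa4, whose protein is now placed with complex IV. Ndufa4 held 205 CPM in static orpk cells and 92.3 CPM in static WT cells. Without it every static orpk library lay below every static WT library. A sum of CPM weighs abundant genes most.

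**Figure D1:**
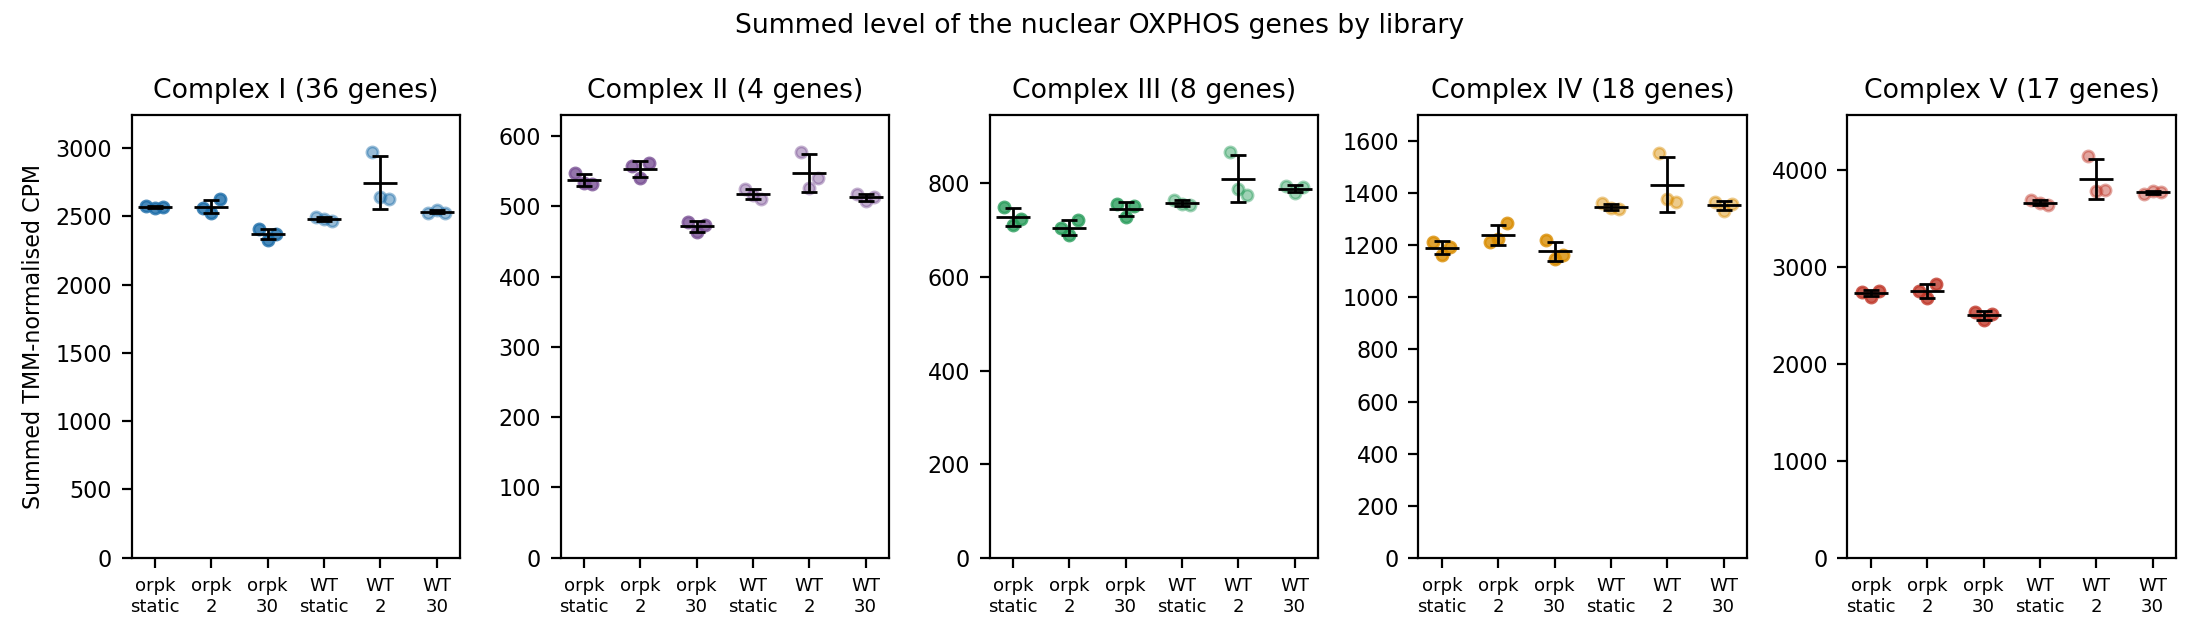
Summed CPM (TMM-normalised, vertical axes) of the genes of each complex in every library, by group, with orpk groups left of WT groups; points are libraries and bars the mean and SD over 3. The complex V sum lies between 2452 and 2826 CPM in orpk libraries and between 3642 and 4150 CPM in WT libraries, and the highest WT points at 2 dyn/cm2 are replicate 1.

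Levels of different genes were set side by side only per kilobase of transcript. In static culture the beta subunit of ATP synthase, Atp5b, stood highest, at 488 CPM per kb in orpk cells and 786 CPM per kb in WT cells. It was followed by the complex IV subunit Cox4i1, at 363 and 448 CPM per kb in orpk and WT cells. The sources used here do not say how reads with several matches were treated, and of the 50-base words of Atp5g2, Atp5l, Cox7c and Atp5h, 100%, 68.5%, 53.0% and 50.5% occur in transcripts of other genes. In all, 37 members share some such words and 28 overlap another gene's exons, 25 of them one on the other strand, so those levels are less certain. For the membrane-embedded c subunit of ATP synthase, Atp5g3 held 318 CPM per kb in static orpk cells and 306 in WT cells, while Atp5g1 held 1.31 and 0.854 CPM per kb and Atp5g2 4.63 and 6.08.

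Flow moved these genes by small amounts, with more members higher than lower in WT cells at both shears and more lower than higher in orpk cells at 30 dyn/cm2. A gene is called here when edgeR's quasi-likelihood test gives an adjusted p under 0.05 over all 13058 genes. At 2 dyn/cm2 against static culture, 26 of 80 members were higher and 14 lower in orpk cells, where 30.9% of all tested genes were higher and 31.1% lower. In WT cells 44 members were higher and 8 lower, beside 32.6% and 30.3% of all genes. The median log2 fold change of the members was 0.04 in orpk cells and 0.13 in WT cells, with medians over all genes of -0.000097 and 0.01. The share called higher in orpk cells lay near that of all genes, and that in WT cells above it. Without WT replicate 1 at 2 dyn/cm2, 34 members were higher and 11 lower in WT cells, and without orpk replicate 2, 26 were higher and 11 lower in orpk cells. Without those libraries the member medians were 0.07 in WT cells and 0.07 in orpk cells, and the orpk median was 0.02 without orpk replicate 1 or 3 at that shear. With library totals in place of TMM factors the orpk counts were 41 and 6, beside 41.1% and 22.8% of all genes. The member medians were then 0.14 in orpk cells and 0.24 in WT cells, and those of all genes 0.10 and 0.12. With RLE factors the orpk median was 0.01.

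At 30 dyn/cm2 against static culture, 15 members were higher and 28 lower in orpk cells, beside 36.5% and 33.3% of all genes, and 10 and 32 by DESeq2. In WT cells 28 were higher and 16 lower, beside 34.1% and 32.7% of all genes. With library totals as the scaling the WT counts were 44 and 10, beside 41.3% and 26.7% of all genes. With TMM factors the shares called lower in orpk cells and higher in WT cells lay near those of all genes, and the shares in the other direction below them. Medians were -0.03 in orpk cells and 0.07 in WT cells, and 0.02 and 0.004 over all genes. At 30 against 2 dyn/cm2, 6 members were higher and 34 lower in orpk cells (32.1% and 31.5% of all genes), and 26 were lower in WT cells (17.2% of all genes). None was higher in WT cells in edgeR's test, where 15.9% of all genes were, with 0 higher also at an unadjusted p under 0.05 and by DESeq2. With library totals the orpk counts were 3 and 58, beside 22.3% and 42.5% of all genes. Without WT replicate 1 at 2 dyn/cm2 the WT counts were 1 higher and 17 lower. The comparisons within a genotype share libraries, so their calls are not independent of each other.

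The median size of change was smaller for the members than over all tested genes, which were not matched to the members for read counts. The median size of the log2 change was 0.14 and 0.16 in orpk cells at 2 and 30 dyn/cm2 and 0.17 and 0.13 in WT cells, against 0.26, 0.36, 0.28 and 0.32 over all tested genes. In those comparisons, called changes of more than 0.5 on the log2 scale were seen for 5, 6, 5 and 7 of 80 members, where 22.0%, 33.4%, 21.0% and 27.4% of all genes passed the same rule. 

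**Figure D2:**
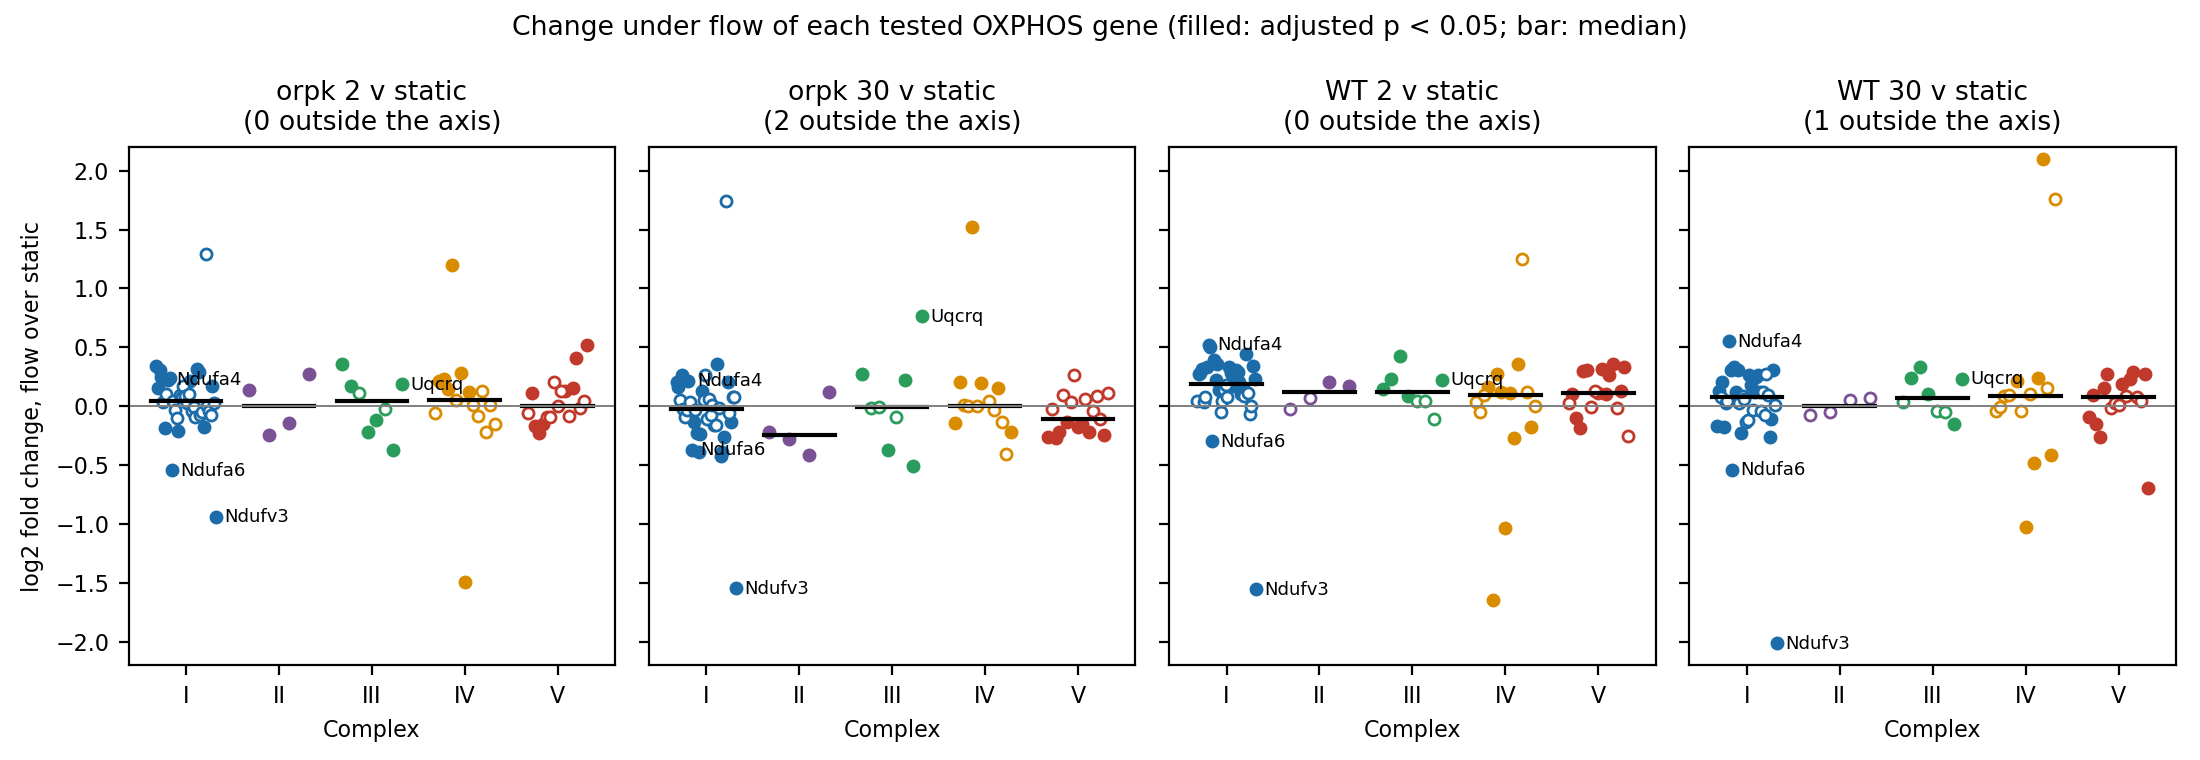
Log2 fold change of flow over static culture (vertical axes) for each tested member, by complex, in orpk cells at 2 and 30 dyn/cm2 and in WT cells at 2 and 30 dyn/cm2. Filled points passed an adjusted p of 0.05 and bars are medians; Ndufv3 of complex I lies at -0.94, -1.54, -1.55 and -2.01, while most genes lie within 0.5 of 0; the points beyond 1 on the higher side rest on few reads.

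Within complex I, Ndufv3 moved most. It encodes an accessory subunit of the arm that oxidises NADH, and lies on chromosome 17, 31520115 to 31531331 (GRCm38, plus strand). Ndufv3 had 166, 175 and 168 CPM in static orpk libraries, 81.8, 91.6 and 92.3 at 2 dyn/cm2 and 58.8, 56.0 and 60.0 at 30 dyn/cm2. In WT libraries it had 109, 108 and 105 CPM in static culture, 39.0, 35.2 and 35.4 at 2 dyn/cm2 and 28.4, 25.7 and 25.7 at 30 dyn/cm2. In both genotypes the libraries of the 3 shears did not overlap, and each WT library lay below the orpk libraries of the same shear. The log2 fold change was -0.94 ± 0.04 (adjusted p = 1.62e-21) and -1.54 ± 0.05 (adjusted p = 2.37e-28) at 2 and 30 dyn/cm2 in orpk cells, and -1.55 ± 0.05 (adjusted p = 4.05e-27) and -2.01 ± 0.05 (adjusted p = 1.67e-30) in WT cells (± SE). Values in brackets after rose, fell, higher or lower are log2 fold changes ± SE. At 30 against 2 dyn/cm2 it was lower again in orpk cells (-0.61 ± 0.05) and in WT cells (-0.46 ± 0.06). Ndufv1, the core subunit of that arm that binds NADH, rose at 2 dyn/cm2 in orpk cells (0.17 ± 0.04) and in WT cells (0.35 ± 0.04). Its WT libraries there had 180, 156 and 157 CPM, with replicate 1 highest, against 133, 129 and 126 CPM in static culture. Ndufs1, which takes up the electrons, also rose in both (0.29 ± 0.04 in orpk cells and 0.20 ± 0.04 in WT cells).

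Ndufa6, another accessory subunit, also fell at both shears in both genotypes. It had 109.7, 112 and 111 CPM in static orpk libraries, 76.4, 75.2 and 77.7 at 2 and 86.3, 82.5 and 89.2 at 30 dyn/cm2, against 61.8, 56.5 and 56.9 CPM in static WT libraries, 51.6, 47.0 and 43.7 at 2 and 41.6, 39.3 and 39.6 at 30 dyn/cm2. The log2 fold change was -0.54 ± 0.05 and -0.37 ± 0.05 in orpk cells and -0.30 ± 0.05 and -0.54 ± 0.05 in WT cells. Of the orpk groups the lowest was that at 2 dyn/cm2, and of the WT groups that at 30 dyn/cm2.

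Ndufa4 and Ndufc2 moved the other way. Ndufa4 bears a complex I name, and its protein is now placed with complex IV. It had 208, 201 and 207 CPM in static orpk libraries, 242, 228 and 249 at 2 and 249, 232 and 236 at 30 dyn/cm2, against 94.5, 91.7 and 90.8 CPM in static WT libraries, 143, 125 and 130.0 at 2 and 132, 143 and 131 at 30 dyn/cm2. It rose in orpk cells (0.22 ± 0.04, adjusted p = 1.16e-05, and 0.22 ± 0.04, adjusted p = 1.58e-05) and in WT cells (0.52 ± 0.05, adjusted p = 3.7e-13, and 0.55 ± 0.05, adjusted p = 4.9e-14), without overlap between flow and static libraries. Ndufc2, an accessory subunit of the membrane arm, rose in orpk cells (0.32 ± 0.08 and 0.36 ± 0.08) and in WT cells (0.29 ± 0.05 and 0.26 ± 0.05). Its level was 21.2 ± 1.27, 26.5 ± 0.820 and 27.2 ± 0.687 CPM in orpk cells in static culture, at 2 and at 30 dyn/cm2, and 60.2 ± 3.36, 73.7 ± 7.79 and 72.3 ± 1.03 CPM in WT cells (SD, n = 3).

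Of the 7 nuclear core subunits of complex I, 2 were higher and 0 lower in orpk cells at 2 dyn/cm2, and 0 higher and 3 lower at 30. In WT cells 5 were higher and 0 lower at 2 dyn/cm2, and 2 higher and 2 lower at 30. The core subunits are few genes. In orpk cells 30.9% of all tested genes were higher and 31.1% lower at 2 dyn/cm2, and 36.5% and 33.3% at 30. In WT cells these all-gene shares were 32.6% and 30.3% at 2 dyn/cm2, and 34.1% and 32.7% at 30. Of the 29 accessory genes, 8 were higher and 5 lower at 2 dyn/cm2 and 7 and 8 at 30 in orpk cells, against 17 and 2, then 12 and 5, in WT cells. With library totals the accessory counts were 16 and 2, then 6 and 9, in orpk cells, against 25 and 2, then 18 and 3, in WT cells. All-gene shares with that scaling were 41.1% and 22.8%, then 35.4% and 34.1%, in orpk cells. In WT cells they were 43.1% and 22.3%, then 41.3% and 26.7%. Ndufa9, an accessory subunit next to the quinone site, had a value of -0.10 ± 0.05 and fell (-0.23 ± 0.05) in orpk cells, and rose (0.36 ± 0.04 and 0.31 ± 0.04) in WT cells. Ndufa5, an accessory subunit of the peripheral arm, rose in WT cells at 2 dyn/cm2 (0.50 ± 0.07), and Ndufs5, another accessory subunit, rose there too (0.44 ± 0.13). Ndufa5 had 49.9, 39.9 and 40.3 CPM in those libraries, with replicate 1 highest, against 30.3, 31.1 and 30.6 CPM in static WT libraries.

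The promoters of 5 members called in the same direction in all 4 comparisons of flow with static culture are shown, so that the letters can be read beside these changes. RefSeq windows were found for 66 of the 83 members, and each entry is the 250 bases before the gene's start as RefSeq gives it, 5' to 3' on its own strand (GRCm38.p6). Capitals mark GCGTG on either strand, a word that holds the core bound by hypoxia-inducible factors. Ndufv3 lies at chr17:31519865-31520114 on the plus strand, Cox7a1, the muscle-type complex IV isoform described below, at chr7:30183921-30184170 on the plus strand, and Ndufa6 at chr15:82354292-82354541 on the minus strand, and all of them fell under flow. Ndufa4 lies at chr6:11907451-11907700 on the minus strand and Ndufc2 at chr7:97399753-97400002 on the plus strand, and both rose. GENCODE M21 starts 3 of these genes further upstream, so that 27, 31 and 47 bases of the windows of Cox7a1, Ndufa6 and Ndufa4 lie within the gene by its bounds.
Ndufv3: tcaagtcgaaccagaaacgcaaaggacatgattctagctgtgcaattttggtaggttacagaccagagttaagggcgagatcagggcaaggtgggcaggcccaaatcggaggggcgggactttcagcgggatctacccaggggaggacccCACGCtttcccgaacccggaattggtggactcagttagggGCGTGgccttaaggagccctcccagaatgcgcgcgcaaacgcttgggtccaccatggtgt
Cox7a1: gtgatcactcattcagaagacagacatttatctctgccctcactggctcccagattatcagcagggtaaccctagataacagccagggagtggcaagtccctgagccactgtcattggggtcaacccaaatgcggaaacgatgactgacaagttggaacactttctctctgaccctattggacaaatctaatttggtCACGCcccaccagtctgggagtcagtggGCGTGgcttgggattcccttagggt
Ndufa6: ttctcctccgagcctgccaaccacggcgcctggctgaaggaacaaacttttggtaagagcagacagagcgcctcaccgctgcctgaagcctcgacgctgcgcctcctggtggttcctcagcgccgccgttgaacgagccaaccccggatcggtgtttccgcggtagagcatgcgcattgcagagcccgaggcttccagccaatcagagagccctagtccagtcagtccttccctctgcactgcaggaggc
Ndufa4: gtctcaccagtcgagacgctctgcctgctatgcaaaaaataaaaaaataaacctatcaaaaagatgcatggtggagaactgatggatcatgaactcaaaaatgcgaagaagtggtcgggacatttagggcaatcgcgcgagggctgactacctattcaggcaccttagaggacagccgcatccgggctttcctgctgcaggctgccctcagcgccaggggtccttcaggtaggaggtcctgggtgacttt
Ndufc2: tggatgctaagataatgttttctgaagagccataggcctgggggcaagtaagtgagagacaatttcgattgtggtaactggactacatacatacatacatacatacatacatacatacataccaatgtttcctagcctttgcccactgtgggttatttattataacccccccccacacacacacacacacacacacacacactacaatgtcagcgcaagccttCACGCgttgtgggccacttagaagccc
GCGTG occurs 2 times in the Ndufv3 window, 2 times in that of Cox7a1, 1 time in that of Ndufc2 and 0 times in those of Ndufa6 and Ndufa4. The windows found for other members called the same way in all 4 comparisons, Atp5c1 and Atp5d (lower) and Ndufa10 and Ndufa12 (higher), also held it 0 times. By the GENCODE bounds 102 bases of the Ndufa10 window and all 250 of those of Atp5d and Ndufa12 lie within the gene. It was found in 26 of the 66 member windows (39.4%) and in 28.0% of all 27025 windows, and ACGTG in 18.2% and 16.4%. Of motifs known from promoters of mitochondrial genes, GCATGCG, the core of the site of the factor NRF1, was found in 12.1% of member windows and 3.1% of all, CCGGAAG, read by ETS factors such as GABP, in 16.7% and 7.1%, and GATGGCG, part of the site of YY1, in 1.5% and 2.2%. The windows were not picked alike. For a member with several windows the one nearest its GENCODE start was used. For all genes the one with the lowest coordinate was used, so the shares of members and of all windows are not strictly comparable. Both strands were searched, the words do not contain one another, and a match is a description of letters alone. The 5 genes were chosen after their values were seen.

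Of complex II, which also serves the citric acid cycle, 3 of 4 genes were lower and 1 higher in orpk cells at 30 dyn/cm2. In WT cells at the same shear 0 of 4 passed edgeR's test, and Sdha alone, on the lower side, had an unadjusted p under 0.05 and a call by DESeq2. With library totals 2 were higher there, beside 41.3% of all genes. The exception in orpk cells was Sdhd, a membrane anchor, which rose at 2 and 30 dyn/cm2 (0.28 ± 0.05 and 0.12 ± 0.05) and in WT cells at 2 dyn/cm2 (0.17 ± 0.05, or 0.10 without WT replicate 1 at that shear). Its call in orpk cells at 30 dyn/cm2 was lost without orpk static replicate 2 (0.11) or 3 (0.09), without orpk replicate 1 (0.08) or 3 (0.12) at 30 dyn/cm2, and with RLE factors or by DESeq2 (0.08). Sdhc, the other anchor, had 106, 103 and 109 CPM in static orpk libraries, 93.4, 94.4 and 99.9 at 2 and 80.8, 76.7 and 81.0 at 30 dyn/cm2, against 115, 116 and 114 CPM in static WT libraries, 143, 128 and 128 at 2 and 124, 117 and 118 at 30 dyn/cm2. It fell (-0.14 ± 0.04 and -0.41 ± 0.05) in orpk cells, rose (0.21 ± 0.04) in WT cells at 2 dyn/cm2 and had a value of 0.05 ± 0.04 at 30. Sdha, the subunit with the FAD that oxidises succinate, rose (0.14 ± 0.03) and fell (-0.22 ± 0.04) in orpk cells at 2 and 30 dyn/cm2, and had values of -0.03 ± 0.03 and -0.07 ± 0.03 in WT cells. Sdhb, the iron-sulfur subunit, fell (-0.24 ± 0.04 and -0.28 ± 0.04) in orpk cells and had values of 0.07 ± 0.04 and -0.05 ± 0.04 in WT cells.

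In complex III the small subunit Uqcrq rose in both genotypes, and in orpk cells it was higher at 30 than at 2 dyn/cm2 (0.58 ± 0.05). It had 116, 111 and 105 CPM in static orpk libraries, 125, 124 and 129.9 at 2 and 186, 186 and 192 at 30 dyn/cm2, against 103, 106 and 110.3 CPM in static WT libraries, 138, 117 and 118 at 2 and 122, 126 and 127 at 30 dyn/cm2. The 3 orpk libraries at 30 dyn/cm2 stood above all others, which lay between 103 and 138 CPM. Uqcrq rose in orpk cells (0.19 ± 0.05, adjusted p = 0.000754, and 0.76 ± 0.05, adjusted p = 6.63e-18) and in WT cells (0.23 ± 0.05, adjusted p = 6.18e-05, and 0.23 ± 0.05, adjusted p = 3.43e-05), with 0.14 at 2 dyn/cm2 without WT replicate 1. Uqcrfs1, the Rieske iron-sulfur protein, rose in orpk cells at 30 dyn/cm2 (0.22 ± 0.05) and had a value of -0.04 ± 0.05 in WT cells. Uqcrc1, a core protein, fell (-0.22 ± 0.04 and -0.37 ± 0.04) in orpk cells and rose (0.09 ± 0.04 and 0.11 ± 0.04) in WT cells. The WT call at 2 dyn/cm2 was lost without any 1 of 5 libraries, with values of 0.05 and 0.09 without WT replicates 1 and 2 at that shear and 0.09 without each of the static ones, and with RLE factors or by DESeq2 (0.07), and that at 30 without WT replicate 1 (0.08). The other core protein, Uqcrc2, fell (-0.12 ± 0.04) in orpk cells at 2 dyn/cm2 and had values of -0.09 ± 0.04 at 30 and of 0.04 ± 0.04 and -0.04 ± 0.04 in WT cells. Its call was lost without orpk static replicate 1 (-0.09) or orpk replicate 2 at 2 dyn/cm2 (-0.10). Uqcrh, the acidic hinge protein that docks cytochrome c, fell (-0.37 ± 0.05 and -0.51 ± 0.05) in orpk cells, and in WT cells had a value of -0.10 ± 0.05 at 2 and fell (-0.15 ± 0.05) at 30 dyn/cm2. Uqcrb, a further small subunit, rose in WT cells at 30 dyn/cm2 (0.33 ± 0.09).

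**Figure D3:**
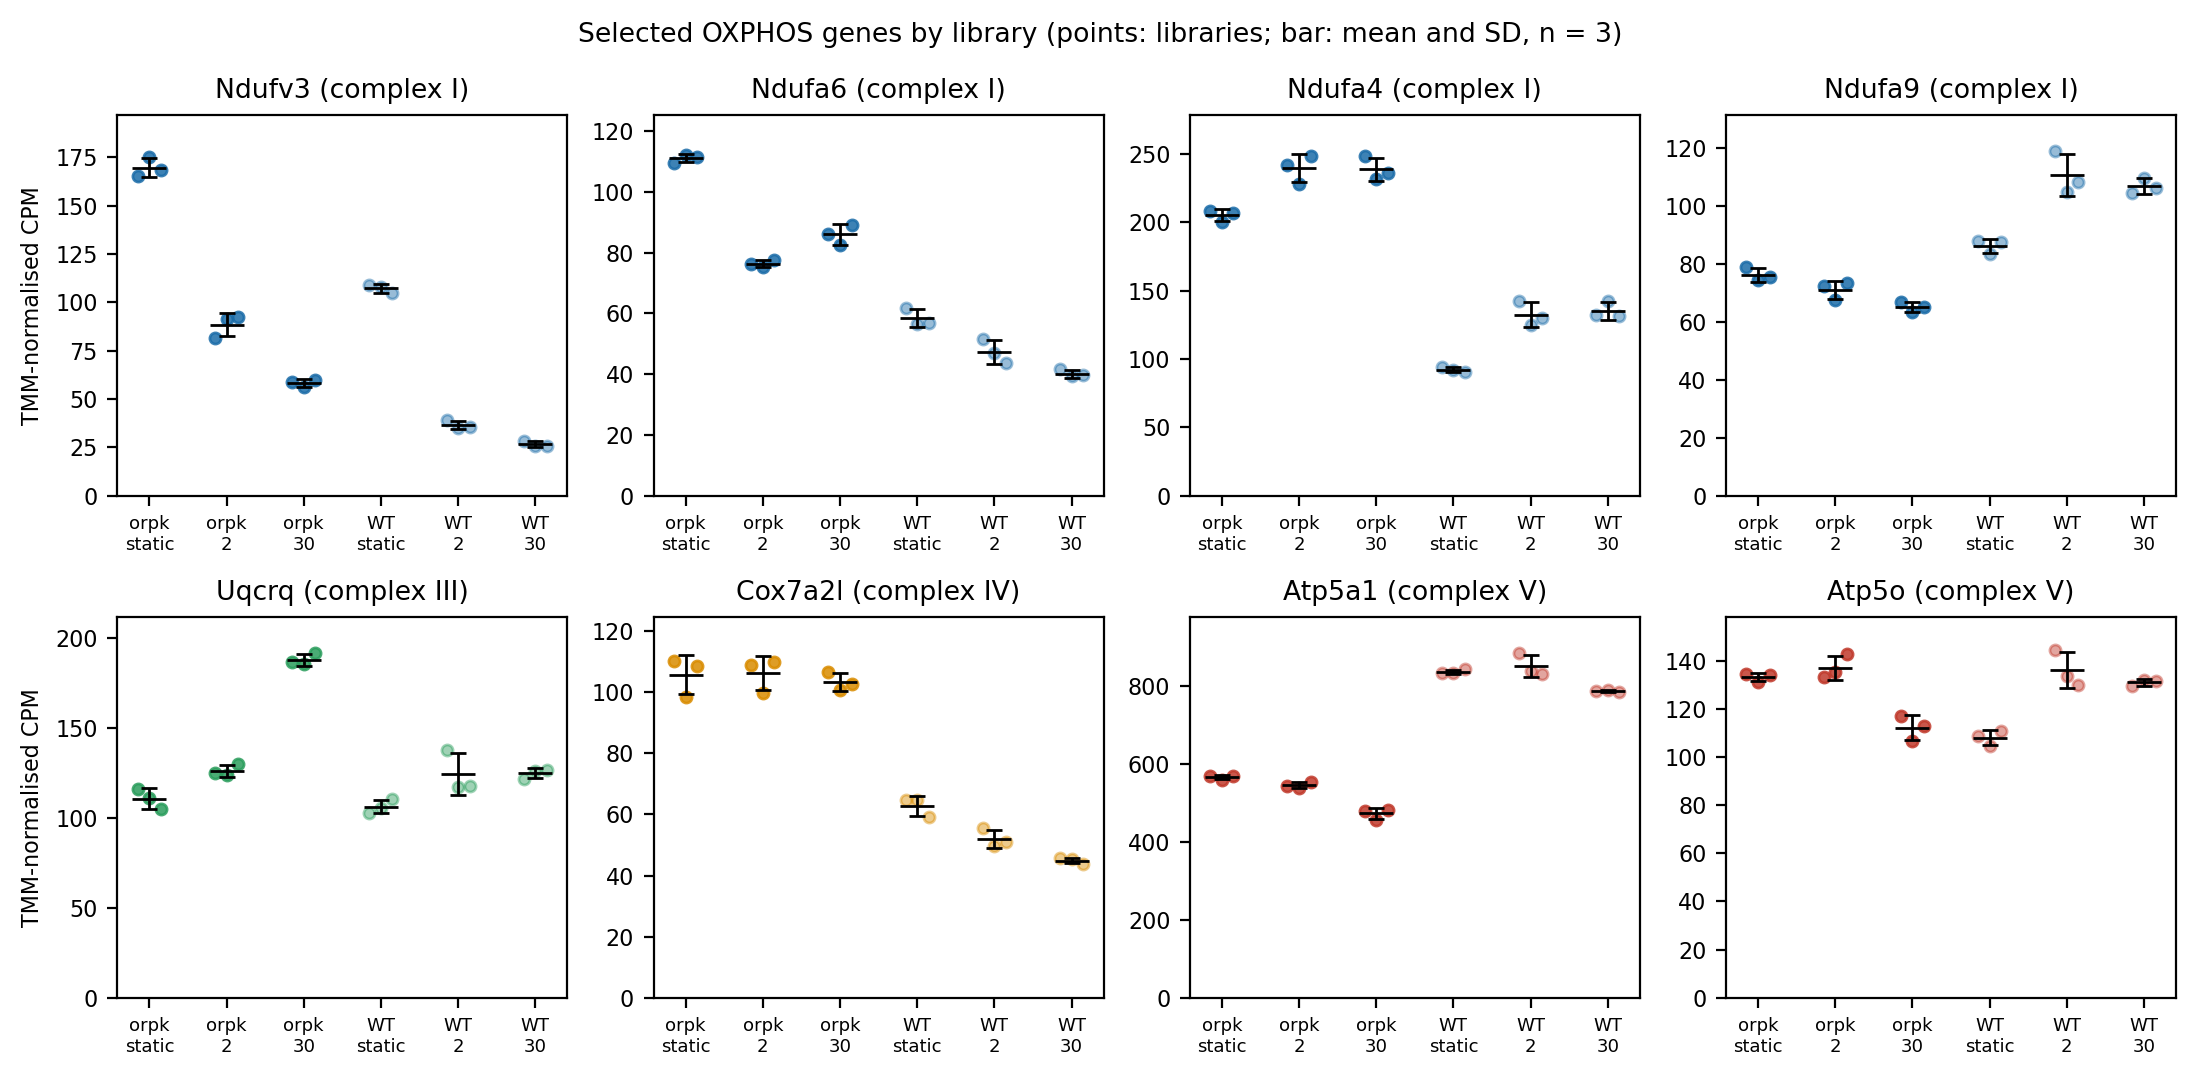
CPM (TMM-normalised, vertical axes, from 0) of 8 members in every library, by group, with orpk groups left of WT groups; points are libraries, bars the mean and SD over 3. Ndufv3 and Ndufa6 lie lower and Ndufa4 higher under flow in both genotypes, Uqcrq stands out in orpk cells at 30 dyn/cm2, and Atp5a1 lies lower in every orpk library than in any WT library.

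In complex IV the changes over 0.5 on the log2 scale lay in isoforms with few reads, and subunits of general use moved less. Cox4i1 had values of -0.06 ± 0.04 in orpk and 0.04 ± 0.04 in WT cells at 2 dyn/cm2, and at 30 it fell (-0.14 ± 0.04) in orpk cells and had a value of -0.04 ± 0.04 in WT cells. Cox5a rose (0.22 ± 0.05 and 0.20 ± 0.05) in orpk cells and had values of -0.05 ± 0.05 and -0.0026 ± 0.05 in WT cells. Cox7b, a small membrane subunit, had a value of -0.08 ± 0.05 and rose (0.16 ± 0.05, not called by DESeq2 at 0.12) in orpk cells, and rose (0.36 ± 0.04 and 0.24 ± 0.04) in WT cells. Its WT libraries at 2 dyn/cm2 had 183, 157 and 160 CPM, with replicate 1 highest, against 127, 133 and 132 CPM in static culture. The ubiquitous isoforms Cox6a1, Cox6b1 and Cox7a2 rose in WT cells at 2 dyn/cm2 (0.16 ± 0.05, 0.27 ± 0.04 and 0.11 ± 0.05), and in orpk cells their values there were 0.15 ± 0.05, 0.05 ± 0.04 and 0.12 ± 0.05, the first and last of them called. Without WT replicate 1 at 2 dyn/cm2 neither Cox6a1 (0.09) nor Cox7a2 (0.03) was called in WT cells. The WT call of Cox7a2 was also lost without WT static replicate 1 (0.09) or 3 (0.12), with RLE factors and by DESeq2 (0.09). In orpk cells the Cox6a1 call was lost without any 1 of 4 libraries (0.11 to 0.14), and that of Cox7a2 without any 1 of 4 (0.09 to 0.12), with RLE factors and by DESeq2 (0.10). Cox8a, another small subunit, had a value of 0.01 ± 0.07 and fell (-0.22 ± 0.07) in orpk cells, and fell (-0.18 ± 0.07 and -0.42 ± 0.07) in WT cells, the call at 2 dyn/cm2 being lost without any 1 of 4 libraries (-0.12 without WT replicate 3 at 2 dyn/cm2, -0.17 without replicate 2, and -0.13 and -0.18 without WT static replicates 1 and 3). Cox7a2l, which ties complex III to complex IV in supercomplexes, had 110.2, 98.6 and 109 CPM in static orpk libraries, 109, 99.8 and 110.0 at 2 and 107, 101 and 103 at 30 dyn/cm2, against 64.7, 64.9 and 59.1 CPM in static WT libraries, 55.5, 49.6 and 50.9 at 2 and 45.6, 45.3 and 43.8 at 30 dyn/cm2. In orpk cells the groups overlapped, with values of 0.01 ± 0.05 and -0.03 ± 0.05. In WT cells flow and static libraries did not overlap, and it fell (-0.27 ± 0.05, adjusted p = 2.67e-05, and -0.48 ± 0.05, adjusted p = 2.7e-10).

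Isoforms known from heart, skeletal muscle or testis had few reads. Cox7a1, the muscle-type partner of Cox7a2, had 17, 19 and 23 reads in static orpk libraries, 6, 6 and 11 at 2 and 2, 2 and 3 at 30 dyn/cm2, against 101, 93 and 87 reads in static WT libraries, 49, 52 and 55 at 2 and 48, 40 and 67 at 30 dyn/cm2. It fell in orpk cells (-1.49 ± 0.35, adjusted p = 0.000273, and -2.92 ± 0.46, adjusted p = 4.95e-07) and in WT cells (-1.04 ± 0.16, adjusted p = 2.77e-07, and -1.03 ± 0.16, adjusted p = 2.59e-07). At 30 against 2 dyn/cm2 it was lower in orpk cells (-1.42 ± 0.58), a call lost without orpk replicate 3 at 2 dyn/cm2 (-1.09) or orpk replicate 1 (-1.33) or 2 (-1.30) at 30. Each orpk library lay below each WT library. Cox6a2, a muscle isoform, had 23, 59 and 62 reads over the 3 orpk groups in static culture, at 2 and at 30 dyn/cm2, against 20, 7 and 0 reads in WT groups. It rose (1.20 ± 0.36, adjusted p = 0.00428, and 1.52 ± 0.36, adjusted p = 0.000258) in orpk cells and fell (-1.64 ± 0.61, adjusted p = 0.0184) in WT cells at 2 dyn/cm2, where the call was lost without WT static replicate 2 (-0.68) or WT replicate 3 at 2 dyn/cm2 (-1.53). In WT cells at 30 dyn/cm2 it was at least 7.49-fold lower than in static culture, taking 3 reads as the most that 0 reads in the group allow. Without WT static replicate 2, which held 13 of the 20 static reads, it was at least 3.77-fold lower. Cox8b, a further muscle isoform, had 30, 30 and 1 reads in the orpk groups, and the 1 read at 30 dyn/cm2 was 28.0-fold (95% exact interval 4.65 to 1140) below static culture. In WT groups it had 0, 0 and 1 reads. Cox7b2, known from testis, had 107, 130 and 91 reads in the orpk groups against 2, 6 and 11 in the WT groups, and at 30 dyn/cm2 in WT cells it was 4.89-fold above static culture (95% exact interval 1.07 to 45.4). Cox4i2, an isoform of lung and of low oxygen, had 3, 1 and 2 reads in the orpk groups and 4, 5 and 4 in the WT groups. Cox6b2 had at most 4 reads in a group and Cox8c had none. Counts of 0 over a group allow up to 3 reads, and intervals and floors cover counting error only.

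Complex V had 8 of 17 genes lower and 0 higher in orpk cells at 30 dyn/cm2 by edgeR, with 0 higher also at an unadjusted p under 0.05 and by DESeq2. In WT cells at that shear 7 were higher and 4 lower. At 2 dyn/cm2 5 were higher and 3 lower in orpk cells, against 10 and 2 in WT cells. All-gene shares called higher and lower were 36.5% and 33.3% in orpk cells at 30 dyn/cm2 and 34.1% and 32.7% in WT cells there. At 2 dyn/cm2 those shares were 30.9% and 31.1% in orpk cells and 32.6% and 30.3% in WT cells. The orpk counts at 2 dyn/cm2 were 5 and 6 with RLE factors, 4 and 5 by DESeq2 and 8 and 0 with library totals. The WT counts there were 11 and 0 with library totals, and at 30 dyn/cm2 10 and 2. The counts for orpk cells at 30 dyn/cm2 were 0 and 9 with RLE factors and 0 and 8 with library totals. All-gene shares with library totals were 41.1% and 22.8%, then 35.4% and 34.1%, in orpk cells at 2 and 30 dyn/cm2. In WT cells they were 43.1% and 22.3%, then 41.3% and 26.7%. The peripheral stalk, which holds the catalytic head still, was higher in WT cells at 2 dyn/cm2, with all 4 genes (Atp5f1, Atp5h, Atp5j and Atp5o) called, and 3 of the 4 at 30. In orpk cells 1 was higher at 2 dyn/cm2 and 3 were lower at 30. Atp5o, the stalk protein that binds the head, had 134, 131 and 134 CPM in static orpk libraries, 133, 135 and 143 at 2 and 117, 107 and 113 at 30 dyn/cm2, against 109, 105 and 111 CPM in static WT libraries, 145, 134 and 129.9 at 2 and 129, 132 and 132 at 30 dyn/cm2. It had a value of 0.04 ± 0.04 and fell (-0.25 ± 0.04, adjusted p = 2.2e-06) in orpk cells, and rose (0.33 ± 0.04, adjusted p = 4.07e-09, and 0.28 ± 0.04, adjusted p = 1.79e-07) in WT cells. Atp5f1, subunit b of the stalk, fell (-0.14 ± 0.05) in orpk cells at 30 dyn/cm2 and rose (0.28 ± 0.04) in WT cells, the orpk call being lost without orpk static replicate 3 (-0.10) or orpk replicate 2 at 30 dyn/cm2 (-0.12).

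The F1 head makes ATP, and its alpha, beta and gamma subunits moved by less than 0.3 on the log2 scale under flow. Of the other head genes, Atp5d was called lower in all 4 comparisons of flow with static culture. Atp5e had 76.9 ± 4.02 CPM in static WT cells and 94.9 ± 9.78 at 2 dyn/cm2, against 64.8 ± 3.30 and 58.3 ± 1.31 CPM in orpk cells (SD, n = 3). Atp5a1, the alpha subunit, had 569, 559 and 569 CPM in static orpk libraries, 544, 538 and 553 at 2 and 480.1, 456 and 483 at 30 dyn/cm2, against 833, 832 and 842 CPM in static WT libraries, 884, 839 and 829 at 2 and 787, 788 and 784 at 30 dyn/cm2. At 30 dyn/cm2 it fell in orpk cells (-0.26 ± 0.03) and in WT cells (-0.09 ± 0.03). Atp5b, the catalytic beta subunit, rose (0.11 ± 0.03) in orpk cells at 2 dyn/cm2 and had a value of -0.02 ± 0.03 at 30, and rose (0.10 ± 0.03 and 0.10 ± 0.03) in WT cells, with 0.06 at 2 dyn/cm2 without WT replicate 1. Atp5c1, the rotating gamma subunit, fell in orpk cells (-0.17 ± 0.04 and -0.27 ± 0.04) and in WT cells (-0.10 ± 0.04 and -0.15 ± 0.04). Its WT call at 2 dyn/cm2 was lost without any 1 of 5 WT libraries, with values of -0.05 to -0.11, and was -0.15 without WT replicate 1 at that shear. Atp5s, a coupling factor rather than a subunit of the enzyme, averaged 4.13 to 10.4 CPM over the groups. It rose (0.52 ± 0.11) in orpk cells at 2 dyn/cm2 and had a value of 0.11 ± 0.12 at 30, and in WT cells it had a value of -0.25 ± 0.12 and fell (-0.69 ± 0.13) at 30, where it also lay below 2 dyn/cm2 (-0.44 ± 0.13, a call lost without WT replicate 1 at 30 dyn/cm2, at -0.37). Atp5l, subunit g of the membrane part, rose in orpk cells at 2 dyn/cm2 (0.41 ± 0.17), with the doubt about shared sequence given above, and the call was lost without orpk replicate 1 at 2 dyn/cm2 (0.27), without orpk static replicate 2 (0.33) or 3 (0.37), and by DESeq2 (0.39). Atp5e, the epsilon subunit of the head, was higher at 30 than at 2 dyn/cm2 in orpk cells (0.25 ± 0.06), as was Uqcrfs1 (0.24 ± 0.05).

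Whether flow moved a gene differently in the genotypes was tested by the interaction, the flow change in orpk cells minus that in WT cells. At 2 dyn/cm2 9 members had a higher and 30 a lower change in orpk cells, beside 27.1% and 25.4% of all genes. At 30 dyn/cm2 the counts were 12 and 29, beside 30.6% and 26.9% of all genes. With library totals as the scaling they were 7 and 39, beside 25.1% and 33.6% of all genes. The share with a lower change in orpk cells was above that of all genes at both shears. Without WT replicate 1 at 2 dyn/cm2 the lower count at 2 dyn/cm2 was 22, and without orpk replicate 2 it was 24. By direction, 8 members at 30 dyn/cm2 were called lower in orpk cells and higher in WT cells, and these comparisons share no library. Of all tested genes, 6.10% showed the same pattern. The 8 were Atp5f1, Atp5h, Atp5j2 and Atp5o of complex V, Ndufa7, Ndufa9 and Ndufb9 of complex I, and Uqcrc1. The 8 became 10 with RLE factors and 13 with library totals, and the all-gene share of this pattern is given for TMM factors only.

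Several members described above differed. At 2 dyn/cm2 the interaction was 0.62 ± 0.07 (adjusted p = 3.76e-10) for Ndufv3, whose fall was smaller in orpk cells, and 0.77 ± 0.17 (adjusted p = 0.000141) for Atp5s. It was -0.46 ± 0.07 (adjusted p = 1e-07) for Ndufa9, -0.45 ± 0.08 (adjusted p = 1.24e-05) for Atp5e and -0.44 ± 0.07 (adjusted p = 2.98e-07) for Cox7b. At 30 dyn/cm2 it was 0.53 ± 0.07 (adjusted p = 6.55e-09) for Uqcrq and 0.81 ± 0.18 (adjusted p = 0.000196) for Atp5s. It was -0.53 ± 0.07 (adjusted p = 5.1e-09) for Ndufa9, -0.53 ± 0.06 (adjusted p = 5.31e-10) for Atp5o and -1.89 ± 0.52 (adjusted p = 0.00204) for Cox7a1. Core subunits with a lower change in orpk cells at 30 dyn/cm2 included Sdha (-0.14 ± 0.05), Sdhb (-0.23 ± 0.06), Uqcrc1 (-0.48 ± 0.05), Atp5a1 (-0.17 ± 0.05) and Atp5b (-0.12 ± 0.05). The Atp5b call was lost without any 1 of 5 libraries (-0.10 to -0.12). Uqcrfs1 had a higher change there (0.27 ± 0.07). Cox6a2 rose in orpk cells and had 0 reads in WT cells at 30 dyn/cm2, so no fold is given for its interaction there.

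**Figure D4:**
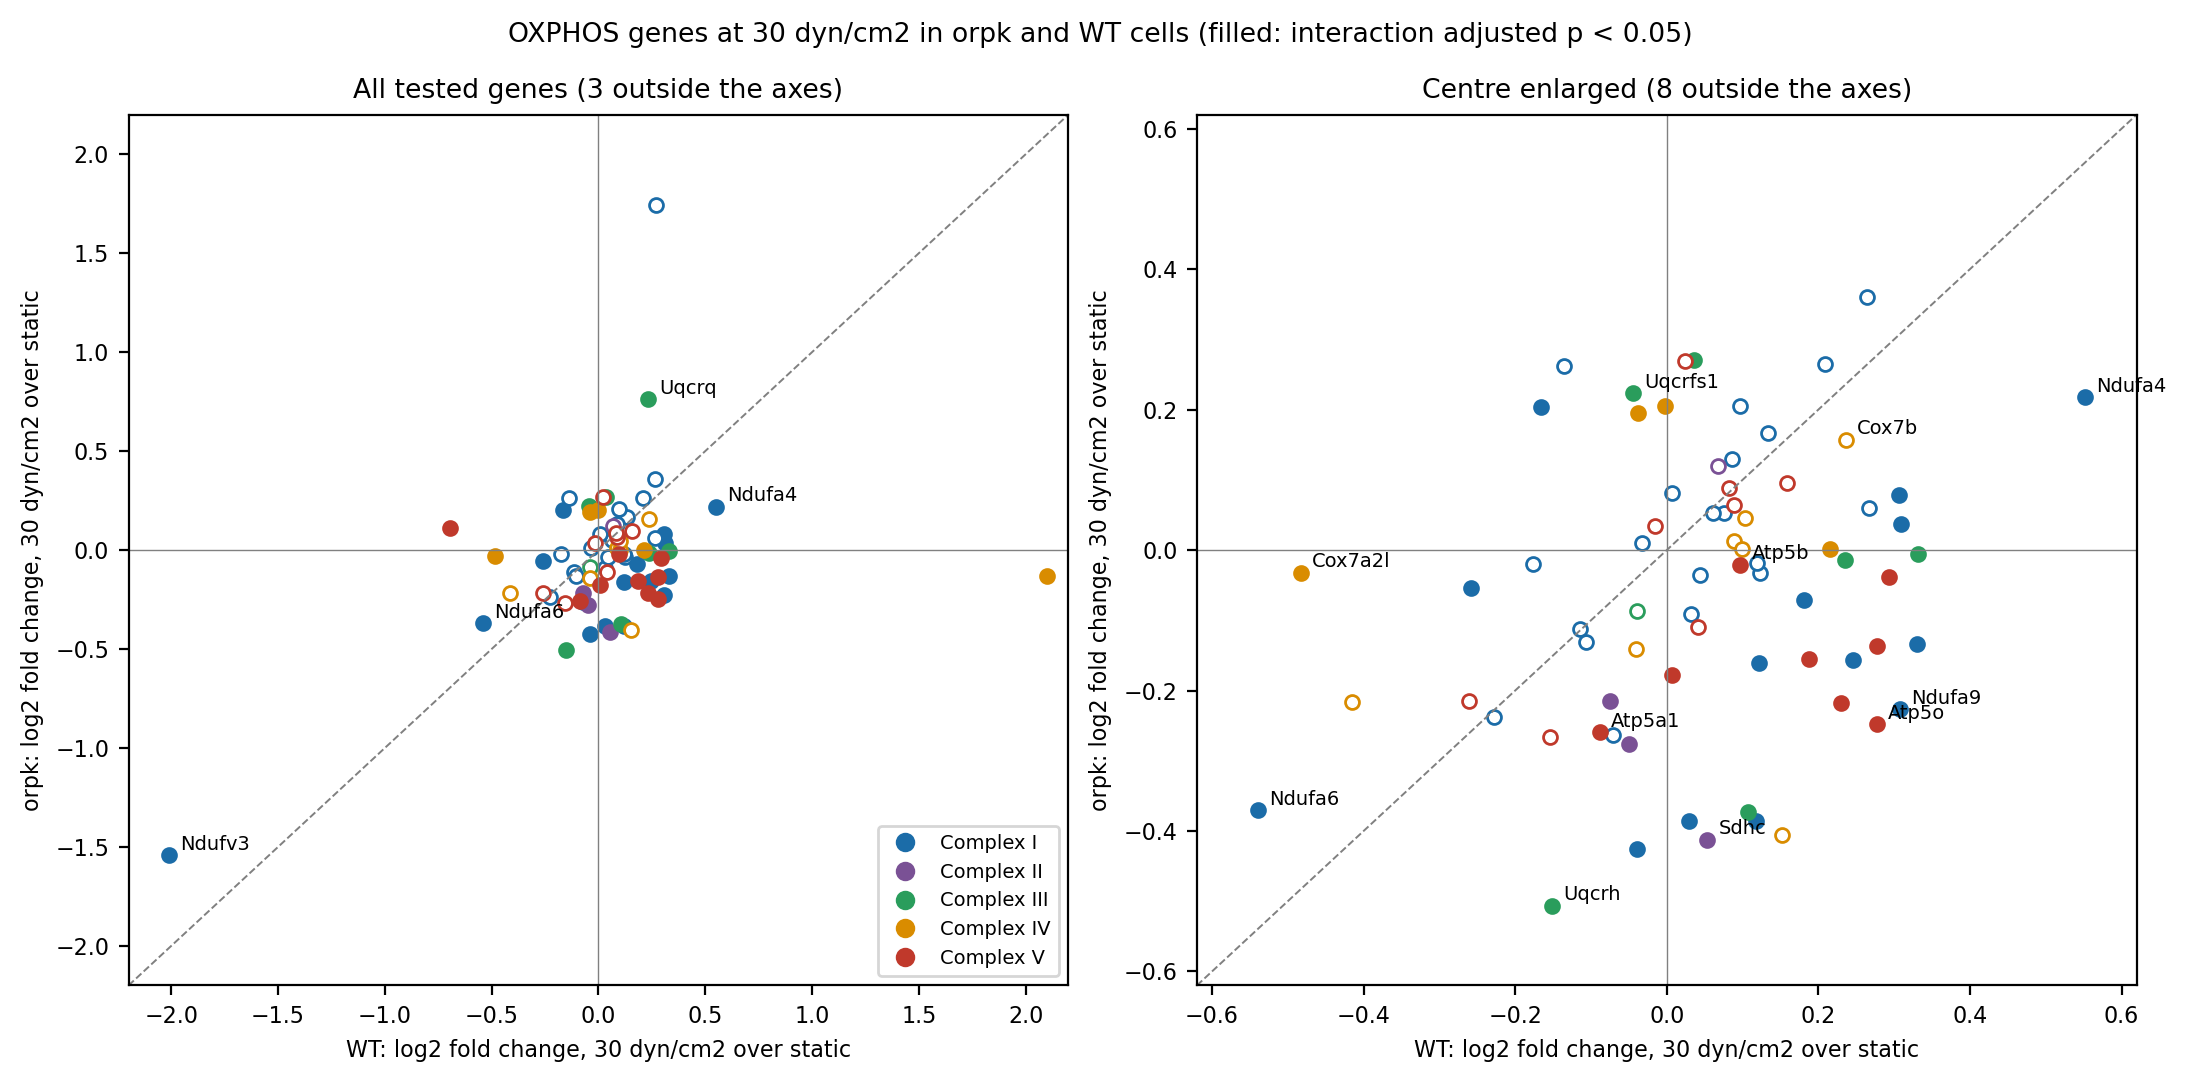
Log2 fold change of 30 dyn/cm2 over static culture in orpk cells (vertical axis) against WT cells (horizontal axis) for each tested member, coloured by complex, with the centre enlarged on the right. Filled points passed the interaction test and the dashed line marks equal change; Uqcrq lies above the line, and Ndufa9, Atp5o and Sdhc lie below it with WT values from 0.05 to 0.31.

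Between the genotypes more members were called than under flow, as for the genome as a whole. Against WT cells, 22 members were higher and 34 lower in orpk cells in static culture, 26 and 42 at 2 dyn/cm2, and 26 and 47 at 30. Of all tested genes, 44.4%, 44.6% and 44.9% were higher and 43.4%, 42.9% and 42.0% lower in those comparisons. The share of members called higher was below that of all genes at every shear, and the share called lower was near it in static culture and above it at 30 dyn/cm2. With library totals as the scaling the counts were 18 and 54, 18 and 55, and 15 and 57. Of all genes, 36.5%, 35.8% and 34.2% were then higher and 51.8%, 52.3% and 54.7% lower. The median of all genes moved to -0.21, -0.20 and -0.28. The member median minus that of all genes was -0.09, -0.19 and -0.25. It was the same with library totals, but scaling shifts all genes of a comparison nearly alike. The sameness is therefore no check on the scaling. In the 3 comparisons, which share no library, 32 of 80 members were lower in orpk cells each time and 18 higher each time, where 32.3% of all tested genes were lower and 34.6% higher each time. The member counts were 50 and 12 with library totals and 34 and 20 without WT replicate 1 at 2 dyn/cm2. The all-gene shares of these patterns are given for TMM factors and all libraries only. Ndufb3, Atp5g2, Atp5j and Atp5l were called at no shear by edgeR. In these bulk libraries, fewer cells of a type and less RNA per cell cannot be told apart.

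All 5 genes of the F1 head of complex V were lower in orpk cells at each shear. Atp5b had 941, 924 and 942 CPM in static orpk libraries, 1014, 982 and 1044 at 2 and 937, 903 and 927 at 30 dyn/cm2, against 1527, 1512 and 1481 CPM in static WT libraries, 1701, 1560.1 and 1590.3 at 2 and 1598, 1620.0 and 1617 at 30 dyn/cm2. No orpk library reached a WT library, and the log2 fold change was -0.69 ± 0.03 (adjusted p = 1.62e-22), -0.67 ± 0.03 (adjusted p = 3e-22) and -0.81 ± 0.03 (adjusted p = 6.71e-25). Atp5a1 was lower (-0.56 ± 0.03, -0.64 ± 0.03 and -0.73 ± 0.03), as was Atp5c1 (-0.43 ± 0.04, -0.50 ± 0.04 and -0.54 ± 0.04). The stalk was mixed, with Atp5o at 0.30 ± 0.04 in static culture, 0.01 ± 0.04 at 2 and -0.22 ± 0.04 at 30 dyn/cm2. Of the c subunits, Atp5g1 was higher in orpk cells, at 0.62 ± 0.14, 0.53 ± 0.14 and 0.67 ± 0.14, and Atp5g3, the abundant isoform, had 0.05 ± 0.04, -0.06 ± 0.04 and -0.13 ± 0.04.

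Complex I held genes of both directions. In static culture 13 of its genes were higher and 14 lower in orpk cells, and at 30 dyn/cm2 14 were higher and 19 lower. With library totals these were 12 and 21, and 9 and 24. With TMM factors the all-gene shares called higher and lower were 44.4% and 43.4% in static culture and 44.9% and 42.0% at 30 dyn/cm2. The same shares with library totals were 36.5% and 51.8%, then 34.2% and 54.7%. Ndufv1 had values of 0.01 ± 0.05, -0.17 ± 0.04 and -0.22 ± 0.04 in static culture, at 2 and at 30 dyn/cm2, with -0.10 at 2 dyn/cm2 without WT replicate 1. Ndufc2 lay further below WT cells, at -1.50 ± 0.07 (adjusted p = 1.49e-23), -1.48 ± 0.06 (adjusted p = 8.99e-25) and -1.41 ± 0.06 (adjusted p = 1.55e-23). Among the higher genes, Ndufb6, an accessory subunit of the membrane arm, had 59.1, 61.6 and 62.4 CPM in static orpk libraries against 28.1, 28.8 and 25.3 CPM in WT libraries, without overlap. Its log2 fold changes were 1.16 ± 0.07, 0.93 ± 0.06 and 0.95 ± 0.06. Ndufa4 stood at 1.15 ± 0.04, 0.85 ± 0.04 and 0.82 ± 0.04, and Ndufv3 at 0.66 ± 0.04, 1.28 ± 0.05 and 1.13 ± 0.06.

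Ndufs5, an accessory subunit of complex I on chromosome 4, 123712710 to 123718202 (GRCm38, minus strand), was nearly without reads in orpk cells. It had 0, 1 and 1 reads in static orpk libraries, 3, 1 and 2 at 2 and 4, 3 and 0 at 30 dyn/cm2, against 92, 82 and 104 reads in static WT libraries, 163, 136 and 130 at 2 and 122, 114 and 141 at 30 dyn/cm2. In static culture the ratio of WT to orpk was 128 (95% exact interval 35.0 to 1060, WT over orpk), from 2 orpk reads and 278 WT reads. Of the gene's 50-base words, 41.2% also occur in the transcripts of a pseudogene, and whether reads were lost or gained there cannot be told from the counts.

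In the other complexes the genotypes differed gene by gene. Sdhb was higher in orpk cells, at 0.47 ± 0.04, 0.16 ± 0.04 and 0.25 ± 0.05, though at -0.06 and -0.07 under flow with library totals, while Sdhc was lower, at -0.12 ± 0.04, -0.47 ± 0.04 and -0.59 ± 0.04, with the static call lost without orpk static replicate 2 (-0.10) and by DESeq2 (-0.09). Sdha had values of both signs, with -0.07 ± 0.03 (adjusted p = 0.0478) in static culture, 0.09 ± 0.03 (adjusted p = 0.0120) at 2 and -0.21 ± 0.04 (adjusted p = 5.8e-07) at 30 dyn/cm2. The static call was lost without any 1 of 5 libraries (-0.06 to -0.08) and with RLE factors or by DESeq2 (-0.04), and that at 2 dyn/cm2 without WT replicate 2 (0.07). In complex III, Uqcrc2 and Uqcrfs1 were lower in orpk cells, at -0.62 ± 0.04 and -0.47 ± 0.05 in static culture and -0.67 ± 0.04 and -0.20 ± 0.05 at 30 dyn/cm2. Uqcrh was higher, at 0.76 ± 0.05 and 0.41 ± 0.05. Uqcrq had 0.06 ± 0.05 and 0.02 ± 0.05 in static culture and at 2 dyn/cm2, and was higher (0.59 ± 0.05) at 30. In complex IV, Cox4i1 was lower in orpk cells (-0.31 ± 0.04, -0.40 ± 0.04 and -0.41 ± 0.04), as was Cox5a (-0.46 ± 0.05, -0.19 ± 0.05 and -0.25 ± 0.05, with -0.11 at 2 dyn/cm2 without WT replicate 1). Cox7a2l was higher (0.75 ± 0.05, adjusted p = 1.71e-17, 1.03 ± 0.05, adjusted p = 3.53e-22, and 1.20 ± 0.05, adjusted p = 6.04e-24), while its paralogue Cox7a2 had -0.08 ± 0.05, -0.07 ± 0.05 and -0.14 ± 0.05, the last of them called, but not without orpk replicate 2 or WT replicate 1 at 30 dyn/cm2 (-0.12 each). Cox6a1 and Cox6b1, the ubiquitous isoforms of their sets, were lower (-0.17 ± 0.05 and -0.42 ± 0.04) in static culture. Several isoforms of muscle and testis were higher in orpk cells, while Cox7a1 was lower (-2.12 ± 0.20, -2.58 ± 0.28 and -4.02 ± 0.37). Cox8b was at least 10.9-fold higher in static orpk cells, which had 30 reads where WT cells had none. Cox7b2 was 58.3-fold higher in static orpk cells (95% exact interval 15.7 to 487), and Cox6a2 was at least 27.1-fold higher in orpk cells at 30 dyn/cm2.

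**Figure D5:**
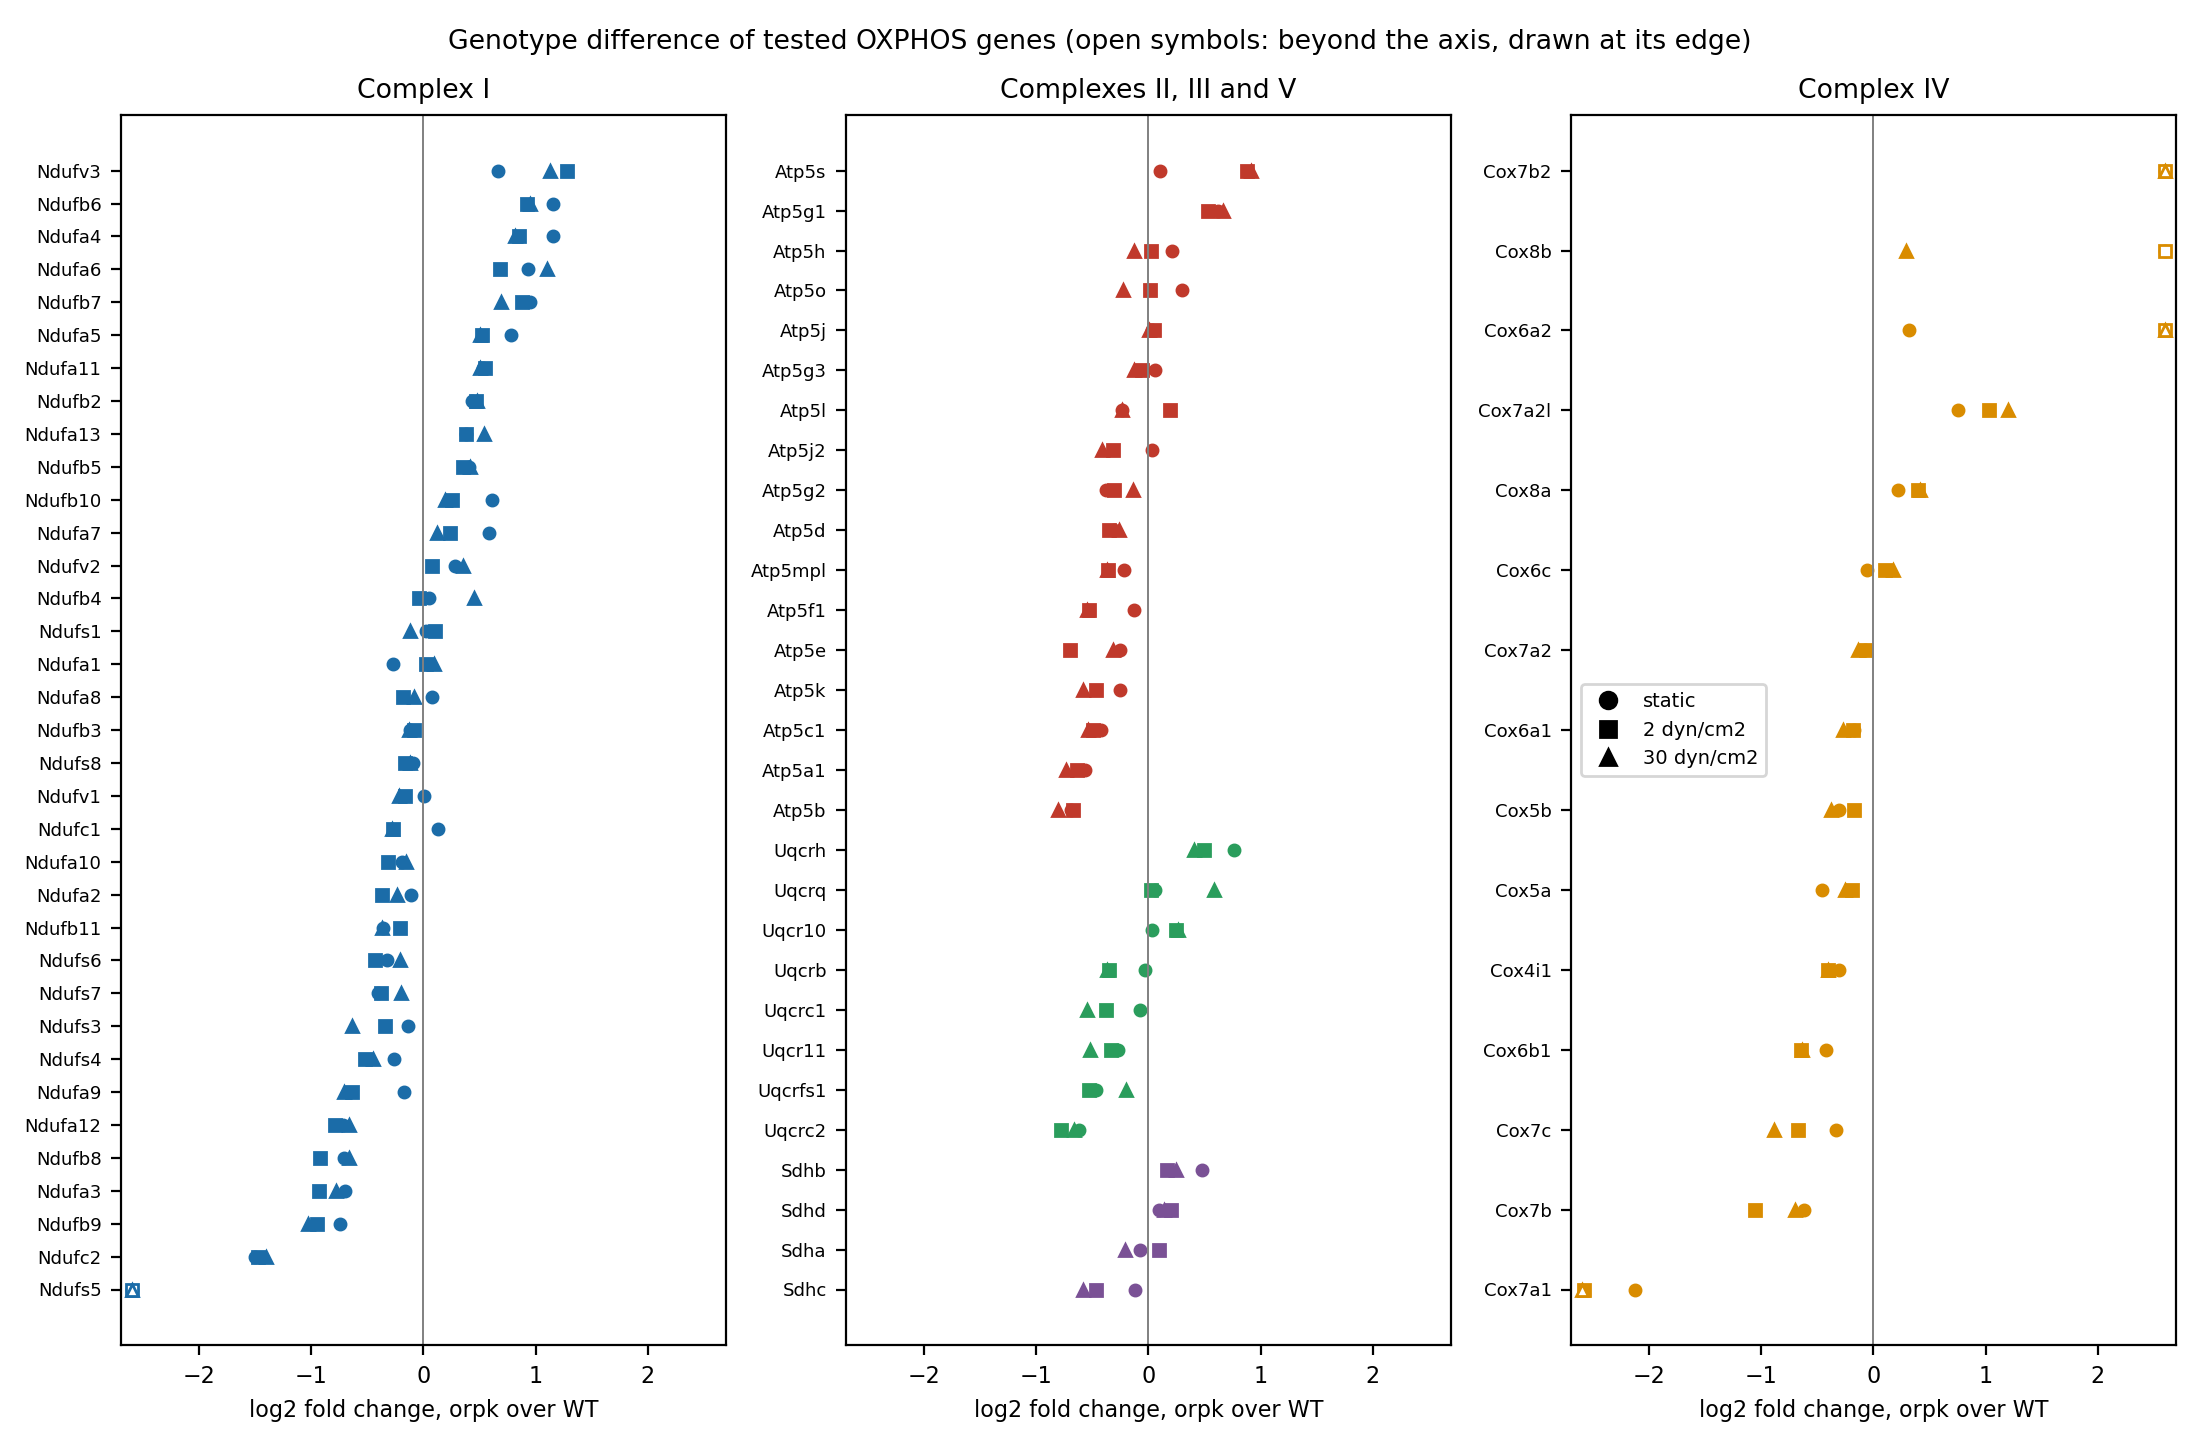
Log2 fold change of orpk over WT cells (horizontal axes) for tested members in static culture (circles), at 2 (squares) and at 30 dyn/cm2 (triangles), coloured by complex; open symbols lie beyond the axis. Complex I genes run from Ndufv3, Ndufb6 and Ndufa4 on the higher side to Ndufc2 and Ndufs5 on the lower, the F1 head genes lie on the lower side, and Cox6a2, Cox7b2, Cox8b and Ndufs5 rest on few reads in a group.

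Genes of a hypoxia list fell in both genotypes. The list holds genes for mitochondrial proteins that respond to low oxygen and the regulators Hif1a and Mxi1. Of its 9 tested genes, all 9 fell in orpk cells at 2 dyn/cm2 and all 9 at 30, and 7 and 7 of the 9 fell in WT cells. All-gene shares called lower in those comparisons were 31.1%, 33.3%, 30.3% and 32.7%. The list's median log2 fold changes were -1.16 and -2.40 in orpk cells and -1.36 and -1.51 in WT cells. Higd1a, which binds complex IV under low oxygen, had 93.8 ± 5.62, 42.0 ± 4.33 and 17.7 ± 0.858 CPM in orpk cells in static culture, at 2 and at 30 dyn/cm2, against 61.5 ± 1.24, 12.4 ± 0.834 and 10.6 ± 0.648 CPM in WT cells. Ndufa4l2, a hypoxia-induced relative of Ndufa4, fell (-1.39 ± 0.20 and -2.93 ± 0.26) in orpk cells and was near the limit of detection in WT cells. Bnip3, a receptor for the removal of mitochondria, fell in orpk cells (-1.77 ± 0.05 and -4.65 ± 0.07) and in WT cells (-4.34 ± 0.07 and -4.88 ± 0.07). Pdk1, a kinase that inhibits pyruvate dehydrogenase, fell in orpk cells (-1.74 ± 0.05 and -4.00 ± 0.06) and in WT cells (-3.42 ± 0.05 and -4.06 ± 0.05). Mxi1, a repressor induced by low oxygen, fell in orpk cells (-2.24 ± 0.06 and -2.39 ± 0.06) and in WT cells (-1.35 ± 0.05 and -1.44 ± 0.05).

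Of 16 tested regulators of mitochondrial biogenesis, 6 were higher and 5 lower in orpk cells at 30 dyn/cm2, against 8 and 4 in WT cells. Of all tested genes, 36.5% were higher and 33.3% lower in orpk cells there, and 34.1% and 32.7% in WT cells. Ppargc1a, the coactivator PGC-1alpha, had 44.3 ± 1.84, 25.6 ± 1.8 and 4.25 ± 0.0995 CPM in orpk cells in static culture, at 2 and at 30 dyn/cm2, against 8.24 ± 1.58, 6.17 ± 0.487 and 2.16 ± 0.117 CPM in WT cells. It fell at 30 dyn/cm2 in orpk cells (-3.38 ± 0.10, adjusted p = 3.84e-29) and in WT cells (-1.94 ± 0.15, adjusted p = 4.58e-15), while Pprc1, a relative of it, rose (0.41 ± 0.04 and 0.76 ± 0.04). Between the genotypes, 10, 10 and 13 of the 16 were lower in orpk cells in static culture, at 2 and at 30 dyn/cm2, beside 43.4%, 42.9% and 42.0% of all tested genes. Esrra, a nuclear receptor that acts with PGC-1alpha, was lower (-1.16 ± 0.06, -1.29 ± 0.06 and -1.28 ± 0.07).

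For the lists that follow, the all-gene shares called higher and lower were 30.9% and 31.1% in orpk cells at 2 dyn/cm2, 36.5% and 33.3% in orpk cells at 30, 32.6% and 30.3% in WT cells at 2, and 34.1% and 32.7% in WT cells at 30. Of 45 tested assembly factors, 12 were higher and 10 lower in orpk cells at 2 dyn/cm2, against 24 and 1 in WT cells. At 30 dyn/cm2 the counts were 16 and 7 in orpk cells and 21 and 7 in WT cells. Cox10, which makes heme for complex IV, rose (0.62 ± 0.07 and 0.65 ± 0.07) in WT cells, against values of 0.07 ± 0.06 and 0.25 ± 0.06 in orpk cells. Of 78 genes of the mitochondrial ribosome, 22 were higher and 18 lower in orpk cells at 2 dyn/cm2 and 38 and 5 at 30, against 60 and 4, then 56 and 6, in WT cells. For the 75 cytosolic ribosome genes the counts were 1 and 36, then 6 and 35, in orpk cells, against 23 and 26, then 27 and 19, in WT cells, and many of them have close copies. Of 18 genes of the citric acid cycle and pyruvate dehydrogenase, 9 were higher and 7 lower in orpk cells at 2 dyn/cm2 and 7 and 5 at 30, against 12 and 2, then 8 and 2, in WT cells. With library totals the orpk counts at 2 dyn/cm2 were 18 and 2 for assembly factors, 34 and 9 for the mitochondrial ribosome and 10 and 4 for the citric acid cycle. The WT counts of the cytosolic ribosome were 30 and 14, then 36 and 12. All-gene shares with library totals were 41.1% and 22.8% in orpk cells at 2 dyn/cm2. In WT cells they were 43.1% and 22.3%, then 41.3% and 26.7%. Idh2, the mitochondrial isocitrate dehydrogenase that uses NADP, fell in orpk cells (-0.87 ± 0.04) and in WT cells (-0.77 ± 0.03) at 30 dyn/cm2. Of 11 subunits and partners outside the naming pattern, Etfb, which passes electrons from fatty acid oxidation, rose in orpk cells (0.67 ± 0.06) and in WT cells (1.01 ± 0.05) at 2 dyn/cm2.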

How the data were processed

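Raw read counts per gene and library were deposited by the authors as 1 table of 18 poly(A) RNA libraries. Per the submitters' processing notes CASAVA 1.8.2, STAR 2.4, featureCounts 1.4.6 and the build GRCm38 were used. Per the labels' protocols the kit keeps strand and reads were single-end, and the settings for strand and multiple matches are not given in the sources used here.

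From these counts, edgeR 4.0.16 in R 4.3.3 fitted 6 group means to all libraries (TMM factors, genes kept by filterByExpr, robust quasi-likelihood F test). Benjamini-Hochberg adjustment ran over all 13058 tested genes within each of 11 comparisons, with a threshold of 0.05. CPM are TMM-normalised, and floors and exact intervals on small counts cover counting error only. Positions, transcript lengths and shared 50-base words came from GENCODE M21 (GRCm38), and promoter windows from RefSeq. The fit was tested on simulated data. Alternatives were RLE factors, library totals, no filter on low counts, DESeq2 1.42.0, a fit of the compared groups alone, a replicate block and leaving out each library.

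The members and gene lists were chosen with earlier results of these data known. Members named were the core subunits, the isoform sets, and in each comparison the 3 highest and 3 lowest called members. Genes named from other lists were taken from among the 3 called genes of each list with the largest changes in a comparison, and not all of these are named. Of the members, 1 gene covered by this rule is not reported here. Sdhc, Sdhd, Uqcrh, Atp5o and Atp5f1, and the 8 members of opposite direction at 30 dyn/cm2, were named after their values were seen.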

Additional observations from a re-analysis of the deposited data

Results flagged for a closer look

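The results below differed between the genotypes by the interaction test of edgeR, the flow change in orpk cells minus that in WT cells, at an adjusted p under 0.05. At 2 dyn/cm2 against static culture this held for 9 members with a higher and 30 with a lower change in orpk cells, and at 30 dyn/cm2 for 12 and 29. It also held for 27.1% and 25.4% of all tested genes at 2 dyn/cm2, and for 30.6% and 26.9% at 30. Among the members named, the interaction at 2 dyn/cm2 was 0.62 ± 0.07 (± SE) for Ndufv3, 0.77 ± 0.17 for Atp5s, -0.46 ± 0.07 for Ndufa9, -0.45 ± 0.08 for Atp5e and -0.44 ± 0.07 for Cox7b. At 30 dyn/cm2 a higher change in orpk cells was found for Uqcrq (0.53 ± 0.07), Atp5s (0.81 ± 0.18) and Uqcrfs1 (0.27 ± 0.07). A lower change was found for Cox7a1 (-1.89 ± 0.52), Ndufa9 (-0.53 ± 0.07), Atp5o (-0.53 ± 0.06), Uqcrc1 (-0.48 ± 0.05), Sdhb (-0.23 ± 0.06), Atp5a1 (-0.17 ± 0.05), Sdha (-0.14 ± 0.05) and Atp5b (-0.12 ± 0.05). Groups of 3 libraries are too small to test single libraries as outliers.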

How the results depend on the processing

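The scaling moved the counts most. With library totals in place of TMM factors, 41 members were higher and 6 lower in orpk cells at 2 dyn/cm2 against static culture, 3 and 58 in orpk cells at 30 against 2 dyn/cm2, and 44 and 10 in WT cells at 30 dyn/cm2 against static culture. The all-gene shares called higher and lower were then 41.1% and 22.8%, 22.3% and 42.5%, and 41.3% and 26.7%. In WT cells at 2 dyn/cm2 5 members were lower, in static culture 54 were lower in orpk than in WT cells, at 30 dyn/cm2 15 were higher in orpk cells, and 7 had a higher change in orpk cells by the interaction at 30. The matching all-gene shares with library totals were 22.3%, 51.8%, 34.2% and 25.1%. The counts of members lower in orpk cells at all 3 shears (50) and lower in orpk but higher in WT cells (13) belong to alternatives chosen after seeing the data. The same scaling turned the sign of 10 of 205 named log2 fold changes, and no other alternative turned any. These were Atp5c1 (0.014) and Sdha (0.084) in WT cells at 2 dyn/cm2. Between the genotypes they were Atp5g3 (-0.16), Ndufv1 (-0.21) and Uqcrq (-0.16) in static culture, Atp5o (-0.21), Sdha (-0.13), Sdhb (-0.058) and Uqcrq (-0.20) at 2 dyn/cm2, and Sdhb (-0.066) at 30. The all-gene median under that scaling moved to 0.12 in WT and 0.10 in orpk cells at 2 dyn/cm2. Of 172 named values that were called, 29 lost the call in some alternative, among them 10 with library totals, 20 when a library was left out and 8 by DESeq2. With library totals those that lost it under flow were Atp5c1 (-0.063), Sdhc (-0.037) and Uqcrc2 (-0.012) in orpk cells at 2 dyn/cm2, Cox8a (-0.066) in WT cells at 2, and Atp5a1 (-0.00048), Atp5c1 (-0.067) and Uqcrh (-0.063) in WT cells at 30. The others were Atp5e (0.13) in orpk cells at 30 against 2 dyn/cm2, and between the genotypes Atp5o (0.085) in static culture and Uqcrh (0.095) at 30.

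Leaving out 1 library at a time gave 5 to 11 members lower in WT cells at 2 dyn/cm2, with 5 without WT replicate 3 at that shear. At 30 against 2 dyn/cm2 in WT cells it gave 0 to 1 higher and 17 to 34 lower, with 1 and 17 without WT replicate 1 at 2 dyn/cm2. All other counts over the 80 tested members called in a comparison stayed within 1.5 times the reported count in the alternatives run. Counts within a complex or another gene list moved more, and their alternatives were chosen after seeing the data. With library totals the complex I counts were 19 and 2 in orpk and 31 and 2 in WT cells at 2 dyn/cm2, and 21 and 4 in WT cells at 30. The all-gene shares were then 41.1% and 22.8%, 43.1% and 22.3%, and 41.3% and 26.7%. In complex II 0 were higher in orpk cells at 30 dyn/cm2 with RLE factors.

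A pair of groups was counted as deviating together only where every correlation between its same-numbered libraries was over 0.1. This held in 0 of 15 pairs of groups, with correlations of -0.0972 to 0.135. A shared origin or batch with a weaker effect would not be counted by this rule, so the check cannot decide whether same-numbered libraries share one. With the replicate number as a block, 44 members were higher and 9 lower in WT cells at 2 dyn/cm2, and no count moved by over 1.5 times. Genes with few reads, such as Cox7a1, Cox6a2 and Cox8b, are limited by depth, and differences below a few reads in a group could not be detected.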
